A study of Mus musculus with 18 samples.

Results

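The loss of the second Smchd1 allele in sorted marrow B cells was described by comparing all 9 del/del libraries with all 9 heterozygous libraries of the study, 18 of 18 libraries. The female and the male table of read counts were joined on gene name, chromosome and start, which matched all 25965 rows, and the table was kept as an additive term, so that each genotype difference was taken within a sex. Of 24483 autosomal rows, 13566 passed the filter on low counts and are described here. The mice were C57BL/6, 12 to 16 months old. The del/del animals had the genotype Smchd1[del/del] with Vav.Cre[T/+], and the controls had Smchd1[del/+] with the same transgene, so that every animal carried Cre and at least 1 deleted allele and none was wild type. Vav-Cre recombines in blood-forming cells and their progeny, so all blood lineages of the del/del animals, and not B cells alone, were targeted. Females gave 5 libraries of each genotype and males 4 of each. Cells had been sorted from femoral marrow as CD45.2+ B220+ Mac1-, and the labels give each library an animal number of its own.

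SMCHD1 is a chromatin protein related to the SMC proteins of cohesin and condensin, with an ATPase domain of another family and a hinge domain that binds nucleic acid. It is known for its part in keeping genes silent on the inactive X chromosome, at some imprinted genes, which are expressed from only the maternal or only the paternal copy, and at the clustered protocadherins. Paternally expressed genes near Snrpn are among the imprinted genes known to respond to its loss.

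The libraries held 9788112 to 29405395 counts. Levels are given in CPM, which are counts scaled to a library's total over the tested genes, with a normalisation factor for each library. The B cell genes Cd79a, Cd79b, Ms4a1, Pax5, Ebf1 and Cd22 were at 253.5 CPM or more in every library. The genotypes had similar means, for example 1314 CPM (heterozygous) and 1301 CPM (del/del) for Cd79a. Markers of other cells were present too. Siglech, of plasmacytoid dendritic cells, was at 61.8 to 450.5 CPM, the neutrophil gene S100a8 at 160.0 to 1007 CPM and the erythroid globin Hbb-b1 at 25.6 to 315.1 CPM, whereas the T cell gene Cd3e did not exceed 7.52 CPM. Since libraries were from bulk RNA, a change in the number of cells of a type and a change in RNA per cell cannot be told apart.

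One library stood apart from the rest. Male heterozygous library 2 had 53 autosomal genes at 3 or more times the CPM of every other library and at 1 CPM or more, against 0 to 2 such genes in each of the other 17 libraries. Many of these 53 genes are known from neural or embryonic tissue. Nnat was at 47.0 CPM there and at most 8.04 CPM elsewhere, the neuronal tubulin Tubb3 at 30.6 and at most 4.4 CPM, the neural progenitor filament Nes at 11.5 and at most 1.44 CPM, and Fabp7, of radial glia, at 10.4 and at most 0.976 CPM. The erythroid factor Klf1 was also among them, at 15.2 CPM and at most 2.77 CPM elsewhere. Smchd1 was at 277 CPM in that library, the lowest of the male heterozygous libraries but above every male del/del library. These genes were chosen after their values were seen. As the library is a control and held reads of genes that rose in del/del libraries, the main counts below are given with and without it. The part of the neural genes in the results was not tested, and counts with the erythroid level as a covariate are given with the marker lists.

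Smchd1 transcripts (ENSMUSG00000024054, GRCm38 chromosome 17, 71344489 to 71475343, minus strand) fell in del/del libraries. Female heterozygous libraries had 269.8, 231, 263, 237 and 238 CPM and female del/del libraries 141, 136, 129.7, 171.2 and 128 CPM. Male heterozygous libraries had 296, 277, 290.3 and 328 CPM and male del/del libraries 163, 178, 168 and 199 CPM. All del/del libraries lay below all heterozygous libraries of their sex, and over the 18 libraries the fit gave a log2 difference of -0.78 (SE 0.06; adjusted p = 2.58e-07, edgeR quasi-likelihood test). Counts were deposited for the gene as a whole and do not give the level of intact transcript. Within 5 Mb of Smchd1, 32 other genes were tested and 0 were called, with 2 at an unadjusted p under 0.05. The tool was edgeR, and their log2 fold changes lay between -0.48 and 0.96.

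Nearly all genes that passed the test were higher after loss of the second allele. Over 18 libraries, 73 of 13566 autosomal genes (0.538%) were called higher in del/del libraries and 3 (0.0221%) lower at an adjusted p under 0.05. At an unadjusted p under 0.05, 563 genes (4.15%) were higher, and 2.46% of genes were lower. The median log2 fold change of all autosomal genes was -0.0018, and 49.5% of them were positive. Among the 73, log2 fold changes had a median of 1.18 and ran from 0.29 to 7.07, and 45 of them were at 1 or more, which is a doubling. Without male heterozygous library 2, 107 of 13711 genes (0.78%) were called higher and 4 (0.0292%) lower. These 107 held 69 of the 73 genes, while the other 4, among them Tmem51, Gatsl2 and Faah, missed the threshold, with adjusted p between 0.0553 and 0.0855 in edgeR. By GENCODE annotation, 68 of the 73 were protein-coding, 3 antisense and 2 long intergenic RNA genes.

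Many of these genes were at low levels in the controls. The median level of the 73 genes was 1.80 CPM in controls and 6.45 CPM after loss, against 27.6 CPM in heterozygous libraries for all autosomal genes tested. In heterozygous libraries 31 of the 73 (42.5%) averaged under 1 CPM, compared with 1391 of all 13566 genes (10.3%). A gene in that range passes the filter more readily if it is higher in another group, so the low levels are given as a description. At the other end, 15 of the 73 averaged over 10 CPM in controls and moved by less, such as Bmi1 (log2 0.29), Vps26b (log2 0.44) and Arhgef12 (log2 0.55).

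**Figure D1:**
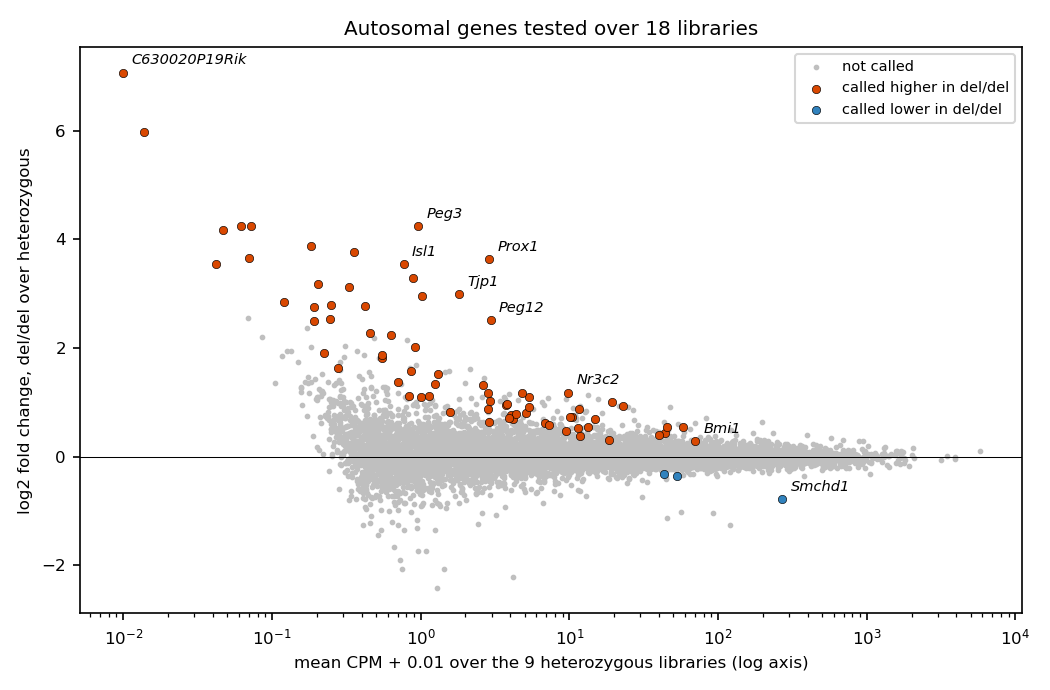
Log2 fold change (y axis) against the mean CPM of the 9 heterozygous libraries plus 0.01 (x axis, log scale) for the 13566 autosomal genes tested over 18 libraries. The 73 genes called higher (orange) range from 0 to 70.0 CPM in controls, with the steepest increases at the left, and the 3 called lower (blue) lie at the right, Smchd1 lowest.

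By number, though not by share of genes tested, developmental transcription factors gave the most calls of any list. Of 35 such genes tested, 6 rose (among them Prox1, Isl1, Dmrt2, Tbx15 and Pax9), 0 fell and 29 did not pass the test. The list's median log2 fold change was 0.32, against -0.0018 over all autosomal genes, with 22 of 35 positive. Without male heterozygous library 2, 10 rose, with Lhx2, Dmrt3, Tfap2a and Ebf3 in addition, and the median was 0.44. Of all autosomal genes, 0.538% with and 0.78% without that library were called higher. The list had 176 genes with an autosomal row, and those not tested did not pass the filter on low counts. A gene nearly silent in controls passes it more readily if it is higher in del/del libraries. The lists were also chosen with earlier results of these data known. Shares and medians of this and the later lists are therefore a description and no test.

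Prox1, a homeobox factor that specifies lymphatic endothelium, had the smallest p of all genes (ENSMUSG00000010175, GRCm38 chromosome 1, 190118038 to 190170680, minus strand). Its level was 3.02, 2.89, 3.84, 2.59 and 1.9 CPM in female heterozygous and 48, 48.6, 36, 40.9 and 40.9 CPM in female del/del libraries. In males it was 2.19, 4.15, 2.41 and 2.85 CPM and 23.8, 38.5, 24.7 and 27.5 CPM. Every del/del library of either sex exceeded every heterozygous one, and the fit gave a log2 difference of 3.63 (SE 0.16; adjusted p = 2.29e-11, edgeR quasi-likelihood test). The lymphatic marker Lyve1 did not pass the filter, with at most 26 reads in a library and 0 in 6 libraries, and the endothelial cadherin Cdh5 was not called, with means of 13.2 CPM in controls and 17.2 CPM in del/del libraries. The antisense row Gm17566 rose as well (log2 3.55, SE 0.59, edgeR adjusted p = 0.0032). It overlaps the start of Prox1 on the other strand, so reads there could not be assigned to either gene.

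Isl1 encodes a LIM homeodomain factor of motor neurons and pancreatic islets (ENSMUSG00000042258, GRCm38 chromosome 13, 116298281 to 116309688, minus strand). It was at 1.46, 1.19, 1.11, 0.551 and 0.337 CPM in female heterozygous libraries and at 22.2, 13.3, 12.3, 14.1 and 7.44 CPM in female del/del libraries. Male values were 0.729, 0.6, 0.53 and 0.317 CPM and 2.8, 6.47, 4.17 and 2.69 CPM. The genotypes did not overlap in either sex, but female del/del libraries were all above male ones; the log2 difference of 3.54 (SE 0.30; adjusted p = 8.4e-07, edgeR quasi-likelihood test) is an average over both. Dmrt2, a DM-domain factor of somite development, was at 0.73, 0.764, 0.438, 0.331 and 0.463 CPM and 3.31, 3.59, 2.92, 1.32 and 2.91 CPM in females and at 0.208, 0.4, 0.294 and 0.396 CPM and 1.54, 1.89, 1.33 and 1.19 CPM in males (log2 2.29, SE 0.23, edgeR adjusted p = 7.1e-06). Its neighbour Dmrt3 was called only without male heterozygous library 2, at 0.92 (SE 0.20, edgeR adjusted p = 0.0331).

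The windows upstream of Prox1 and Isl1 are shown because these 2 genes had the smallest p among the factors. Each is the 250 bases before the start in RefSeq, build GRCm38.p6, read 5′ to 3′ on the gene's strand, with CpG dinucleotides, the sites of DNA methylation, in capitals. That of Prox1 is chr1:190170828-190171077, minus strand, and that of Isl1 is chr13:116309689-116309938, minus strand.
Prox1: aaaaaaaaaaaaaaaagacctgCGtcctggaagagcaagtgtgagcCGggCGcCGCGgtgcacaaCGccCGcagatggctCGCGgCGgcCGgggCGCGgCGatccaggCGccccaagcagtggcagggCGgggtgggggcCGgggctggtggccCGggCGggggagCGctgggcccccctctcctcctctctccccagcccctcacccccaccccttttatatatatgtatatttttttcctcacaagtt
Isl1: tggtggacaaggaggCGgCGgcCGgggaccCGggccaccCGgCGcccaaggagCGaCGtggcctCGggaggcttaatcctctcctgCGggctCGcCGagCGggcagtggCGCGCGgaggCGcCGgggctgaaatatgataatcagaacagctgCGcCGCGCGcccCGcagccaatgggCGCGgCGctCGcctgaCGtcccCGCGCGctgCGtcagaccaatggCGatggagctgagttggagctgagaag
The Prox1 window holds 20 CpG and the Isl1 window 33.

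Imprinted genes rose at few loci. Of 41 imprinted genes tested, 3 rose (Peg12, Mkrn3 and Peg3), 0 fell and 38 did not pass, with a median of 0.03 and 22 of 41 positive. Without male heterozygous library 2, 5 rose, with Ndn and Cdkn1c in addition. Over all autosomal genes the shares called higher were 0.538% with that library and 0.78% without it. Mkrn3, Peg12 and Ndn lie in the Snrpn region and are expressed from the paternal copy. In the Snrpn cluster list, which was written from earlier work on Smchd1, 2 of 5 tested genes rose and the median was 1.56; without that library 3 rose and the median was 2.25. Its member Atp10a, at the other end of the region, was at -0.18 (SE 0.09), which did not pass.

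Peg12, an intronless gene of the Frat family of GSK3-binding proteins (ENSMUSG00000070526, GRCm38 chromosome 7, 62461871 to 62464510, minus strand), was at 2.64, 3.48, 3.73, 3.69 and 4.72 CPM in female heterozygous and 19.3, 15.8, 17, 18.9 and 15.7 CPM in female del/del libraries. Male libraries had 1.77, 3.15, 1.53 and 1.82 CPM and 15.7, 16.9, 16.9 and 13.7 CPM. No values of the 2 genotypes overlapped, and the fit gave a log2 difference of 2.51 (SE 0.15; adjusted p = 2.15e-09, edgeR quasi-likelihood test). Mkrn3, which encodes a ring finger protein that restrains the onset of puberty, lies 41.7 kb away (GRCm38 chromosome 7, 62417593 to 62420139, minus strand), with 0 tested genes between them. Its levels were 0.278, 0.849, 0.639, 0.551 and 0.421 CPM and 2.9, 2.3, 3.35, 3.6 and 3.24 CPM in females and 0.729, 0.65, 0.765 and 0.712 CPM and 2.48, 2.88, 2.8 and 2.17 CPM in males. They did not overlap either (log2 2.23, SE 0.20, edgeR adjusted p = 1.24e-06).

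Their upstream windows, again 250 bases from RefSeq (GRCm38.p6) with CpG in capitals, are shown for contrast with those of Prox1 and Isl1. The window of Peg12 is chr7:62464511-62464760, minus strand, and that of Mkrn3 is chr7:62420154-62420403, minus strand.
Peg12: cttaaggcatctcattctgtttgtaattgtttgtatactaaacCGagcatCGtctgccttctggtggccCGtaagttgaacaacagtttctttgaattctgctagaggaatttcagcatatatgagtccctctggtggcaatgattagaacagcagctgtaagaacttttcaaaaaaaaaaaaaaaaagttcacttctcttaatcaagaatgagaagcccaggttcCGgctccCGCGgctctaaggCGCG
Mkrn3: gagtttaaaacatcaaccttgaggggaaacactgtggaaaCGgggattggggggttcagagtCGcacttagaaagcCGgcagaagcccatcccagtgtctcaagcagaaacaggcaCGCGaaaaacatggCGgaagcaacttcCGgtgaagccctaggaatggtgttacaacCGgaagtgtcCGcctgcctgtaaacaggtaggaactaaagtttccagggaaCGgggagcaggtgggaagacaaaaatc
They hold 8 and 10 CpG.

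Peg3, a zinc finger gene expressed from the paternal copy and distant from the Snrpn region (GRCm38 chromosome 7, 6703892 to 6730421), had the widest relative change of the 3. Female heterozygous libraries were at 0.382, 0.934, 1.01, 0.276 and 0.126 CPM and female del/del libraries at 16.6, 15, 17, 16.3 and 23.3 CPM. The male values were 0, 4.9, 0.471 and 0.475 CPM and 18.4, 13.2, 26.2 and 16.4 CPM, where the one high control is library 2. Even that control lay below all del/del libraries, and the log2 difference of 4.25 (SE 0.46; adjusted p = 1.59e-05, edgeR quasi-likelihood test) became 5.22 (SE 0.30, edgeR adjusted p = 3.68e-09) without it.

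Ndn, which encodes necdin, a protein of postmitotic neurons, was one of 38 genes called higher only without male heterozygous library 2 (GRCm38 chromosome 7, 62348277 to 62349928). It was at 0.174, 0.34, 0.0673, 0.165 and 0 CPM in female heterozygous and 4.03, 1.59, 2.08, 1.87 and 2.29 CPM in female del/del libraries. In males it was at 0.104, 11.5, 0.294 and 0.317 CPM in heterozygous and 2.48, 2.43, 2.93 and 2.27 CPM in del/del libraries. Apart from male heterozygous library 2, which had the highest value of all 18 libraries, every control lay below every del/del library. With all libraries the log2 difference of 1.56 (SE 0.82; adjusted p = 0.782, edgeR quasi-likelihood test) did not pass, and without that one it was 3.80 (SE 0.36, edgeR adjusted p = 3.02e-06). Cdkn1c, a CDK inhibitor expressed from the maternal copy, was at log2 0.71 (SE 0.24) with all libraries and was called without it, at an edgeR adjusted p of 0.00466.

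**Figure D2:**
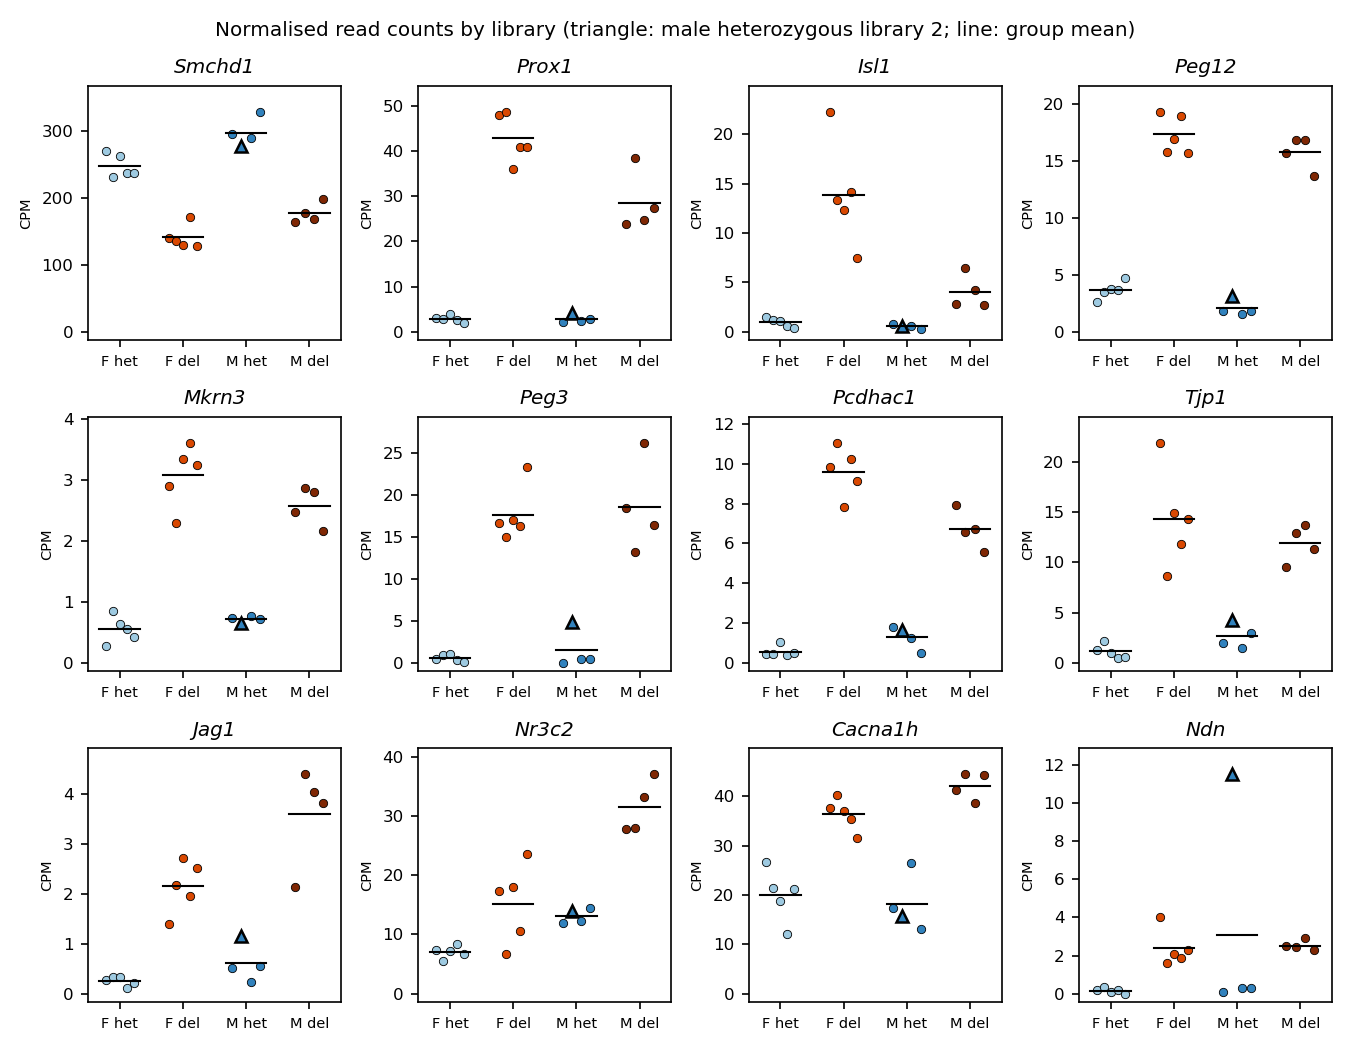
CPM (y axis, from 0) in each of the 18 libraries for Smchd1 and 11 other genes, by sex (F, M) and genotype; points are libraries, lines are group means and the triangle is male heterozygous library 2. Group means of del/del libraries were lower for Smchd1 and higher for the other genes, except for Ndn in males, and the triangle exceeds all other controls for Prox1, Peg3, Tjp1, Jag1 and Ndn.

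Of 8 rows of the clustered protocadherins, which encode adhesion proteins that give neurons their surface identity, 2 rose (Pcdhac1 and Pcdhb5) and 6 did not pass. The median was 0.45, and the same 2 were called without male heterozygous library 2. The shares called higher over all autosomal genes were 0.538% with that library and 0.78% without it. Pcdhac1 (GRCm38 chromosome 18, 36930285 to 37187657) covers the whole alpha cluster, whose isoforms its reads do not separate. Its values were 0.417, 0.425, 1.04, 0.386 and 0.505 CPM and 9.82, 11, 7.81, 10.2 and 9.16 CPM in female heterozygous and del/del libraries, and 1.77, 1.65, 1.24 and 0.475 CPM and 7.94, 6.56, 6.75 and 5.58 CPM in male ones. The genotypes were separate in both sexes (log2 3.28, SE 0.28, edgeR adjusted p = 8.4e-07). Pcdhga11, of the gamma cluster, was the negative member, at -0.43 (SE 0.14), and did not pass.

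Among 38 other cadherin and adhesion genes, 2 rose (Tjp1 and Cdh4), 0 fell and 36 did not pass, with a median of 0.17; of all autosomal genes 0.538% were called higher. Without male heterozygous library 2, 6 rose, with Cdh13, Fat3, Pcdh17 and Ncam1 in addition. The median was then 0.34, and 0.78% of all autosomal genes were called higher. Tjp1, which encodes the tight junction scaffold ZO-1, was at 1.29, 2.21, 1.01, 0.496 and 0.59 CPM in female heterozygous and 21.9, 8.6, 14.9, 11.8 and 14.4 CPM in female del/del libraries. In males it was at 1.98, 4.25, 1.41 and 2.93 CPM and 9.53, 12.9, 13.7 and 11.4 CPM, with no overlap of genotypes (log2 2.99, SE 0.31, edgeR adjusted p = 1.04e-05). Cdh4, retinal cadherin, went from 0.347, 0.0849, 0.0336, 0 and 0.0421 CPM to 3.46, 6.43, 3.12, 2.33 and 1.15 CPM in females. Its male values were 0, 1, 0.0589 and 0 CPM and 2.01, 3.73, 1.29 and 2.74 CPM, where library 2 was the high control (log2 3.89, SE 0.60, edgeR adjusted p = 0.00127). Without it the log2 fold change of Cdh4 was 5.05 (SE 0.53, edgeR adjusted p = 1.2e-05). Named by their p and on neither adhesion list, Mllt4, which encodes afadin (log2 1.10), Pard3b (log2 0.94) and Ptk2, the focal adhesion kinase (log2 0.88), also rose.

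Over all autosomal genes the shares called higher were 0.538% with and 0.78% without male heterozygous library 2. Without that library 7 of 61 neuronal and excitable-cell genes rose and the median was 0.15. With all libraries 3 of the 61 rose, 0 fell and 58 did not pass, with a median of 0.09. Among the 3 were the T-type calcium channel Cacna1h and Gad1, which makes the transmitter GABA. Cacna1h was at 26.6, 21.5, 18.8, 12.1 and 21.3 CPM and 37.6, 40.3, 36.9, 35.5 and 31.4 CPM in female heterozygous and del/del libraries and at 17.4, 15.8, 26.5 and 13.1 CPM and 41.3, 44.4, 38.6 and 44.2 CPM in male ones. It was among the few genes that rose from a well-expressed level without overlap in either sex (log2 1.01, SE 0.13, edgeR adjusted p = 0.000285). Gad1 overlapped between genotypes in males, where 1 del/del library was below all controls (log2 0.73, SE 0.16, edgeR adjusted p = 0.0398). The 4 added without the library were Syt13, Elavl2, Robo1 and Pclo.

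Single ligands and receptors rose in lists that otherwise had no call. Jag1, a ligand of Notch receptors, was at 0.278, 0.34, 0.337, 0.11 and 0.21 CPM and 1.4, 2.17, 2.73, 1.96 and 2.53 CPM in female heterozygous and del/del libraries and at 0.521, 1.15, 0.235 and 0.554 CPM and 2.15, 4.4, 4.04 and 3.83 CPM in male ones. Its genotypes did not overlap (log2 2.78, SE 0.27, edgeR adjusted p = 4.29e-06). It was the 1 call among 28 Notch pathway genes, whose median was -0.01, while 0.538% of all autosomal genes were called higher. The target Hes1 was at -0.29 (SE 0.11) and did not pass.

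Against 0.538% of all autosomal genes called higher, Nr3c2, the mineralocorticoid receptor, was the 1 call among 17 corticoid receptor and response genes. It lay in a list with 14 of 17 positive and a median of 0.17. Its values were 7.37, 5.44, 7.17, 8.43 and 6.7 CPM and 17.3, 6.72, 18, 10.5 and 23.5 CPM in females and 12, 14, 12.3 and 14.4 CPM and 27.9, 28, 33.3 and 37.1 CPM in males. All male controls were above all female ones, and only female del/del library 2 overlapped its controls (log2 1.18, SE 0.17, edgeR adjusted p = 0.000675). Il3ra, the alpha chain of the interleukin 3 receptor, was at 15.6, 13.2, 15.8, 14.2 and 17.2 CPM and 16.6, 22.8, 22, 22.5 and 24.7 CPM in females and at 12.7, 10.4, 11.4 and 9.18 CPM and 16.4, 15.2, 18.5 and 15.7 CPM in males (log2 0.55, SE 0.08, edgeR adjusted p = 0.00111). It is also a marker of plasmacytoid dendritic cells. Crlf2, a subunit of the receptor of the cytokine TSLP, rose by a similar amount (log2 0.55, SE 0.09).

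Other genes among the smallest p changed less. Tspan17, a tetraspanin, was at 9.42, 8.66, 11, 8.27 and 9.89 CPM and 18, 16.8, 15.4, 14.8 and 17.5 CPM in females and at 10.9, 10.7, 13.5 and 10.5 CPM and 15.8, 18.6, 21.4 and 15.3 CPM in males, without overlap (log2 0.73, SE 0.09, edgeR adjusted p = 5.62e-05). The endocytic adaptor Epn2 was at log2 0.80 (SE 0.10) and the retromer subunit Vps26b at 0.44 (SE 0.06). Both were called over the 18 libraries but in neither sex alone. Tmtc2, an endoplasmic reticulum protein, was at 1.57 (SE 0.21), and the RhoA exchange factor Arhgef12 at 0.55 (SE 0.08).

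The highest fitted folds belonged to 2 genes with almost no reads in controls. C630020P19Rik, an antisense RNA, had 0 reads in all 9 heterozygous libraries and 159 in the del/del libraries, with reads in 9 of 9. Against a floor of 3 reads over the control group it was at least 46.0-fold higher, a bound that covers counting error only. The protein-coding gene 5730507C01Rik also had 159 reads in del/del libraries and 1 in controls (log2 5.98, SE 0.56, edgeR adjusted p = 2.35e-06), a ratio that rests on that 1 read. Gm16025 and Gm16028, on chromosome 1 with a gap of 71.3 kb, rose by 4.25 and 2.97 on the log2 scale. The row C130026I21Rik spans Gm16028, so reads could not be told apart there.

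Over all autosomal genes, 0.538% were called higher and 0.0221% lower. Of 47 genes of DNA methylation and repressive chromatin, 1 rose, 0 fell and 46 did not pass, with a median of -0.06. The 1 was Bmi1, a core subunit of Polycomb repressive complex 1, at 59.4, 59.4, 74.4, 61.5 and 57.1 CPM and 78.9, 62.8, 78.5, 77.2 and 79 CPM in females and 72.1, 79.7, 83.7 and 83.2 CPM and 94.1, 96.5, 104 and 100.3 CPM in males. Only female del/del library 2 was within the range of its controls (log2 0.29, SE 0.06, edgeR adjusted p = 0.0206). Dnmt3a was at -0.09 (SE 0.04). Of 19 SMC, cohesin and CTCF genes 0 were called and 3 were positive (median -0.08). Of 39 Hox genes with a row, 10 passed the filter on low counts, which favours nearly silent genes that are higher in del/del libraries. All 10 were positive, with a median of 0.36, and 0 of 10 were called. Hoxc4 was at 2.02 (SE 0.57, adjusted p = 0.205 with edgeR).

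Apart from Smchd1, only 2 autosomal genes were called lower. Rgl1, an effector of Ras proteins, was at 45.5, 56.7, 46.8, 42.3 and 43.7 CPM and 41.9, 39.3, 39.5, 42.5 and 34.1 CPM in females and at 42.7, 38.6, 37.1 and 33.9 CPM and 30.4, 30.2, 26.3 and 27.3 CPM in males. In females the lowest control and the highest del/del library overlapped narrowly, and the log2 difference of -0.32 (SE 0.07; adjusted p = 0.0292, edgeR quasi-likelihood test) was small. The other was 1810013D10Rik (log2 -0.36, SE 0.08, edgeR adjusted p = 0.0302). Neither was called once any one of female heterozygous library 2, female del/del library 3 or 5, male heterozygous library 1 or 3, or male del/del library 3 or 4 was left out, although both stayed negative.

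The increases were spread over the libraries as well as over the genome. Female del/del libraries 1, 3, 4 and 5 exceeded every female control for 67 to 72 of the 73 genes, and the 4 male del/del libraries exceeded every male control for 67 to 72. Female del/del library 2 did so for 55. Over all 13566 genes the libraries exceeded their controls in 13.1% to 29.4%. Because the 73 genes were called with these libraries, the counts describe evenness and are no test. Female del/del library 2 also had a plasmacytoid dendritic cell level of 6.29 and a proliferation level of 7.57, in mean log2 CPM. Libraries 1, 3 and 5 were at 7.02 to 7.19 and 6.70 to 7.13, and library 4 was at 6.12 and 7.53. Whether these levels bear on the 55 was not tested.

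Counting only genes in which every del/del library exceeded every control of its sex, in both sexes, 35 of 13566 (0.258%) were found, 34 of them among the 73. Of the 73, 45 were separate in females, 60 in males and 2 in neither sex. Groups of 4 libraries, as in males, separate more easily than groups of 5, as in females. The share of all autosomal genes separate within each sex is not given here. The 45 and the 60 therefore do not compare the response of the sexes. Without male heterozygous library 2, 62 genes (0.457%) were separate in both sexes, 38 of them among the 73. In the opposite direction 2 genes, Smchd1 and Pkhd1l1, were separate in both.

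The sexes were then used as checks on each other, since their libraries were separate. In the female table alone 32 of 13068 autosomal genes (0.245%) were called higher, and in the male table alone 15 of 12988 (0.115%). Of the 73 genes, 20 were called in females alone, 15 in males alone, 7 in both and 45 in neither sex alone. Of the 15 male calls, 11 were tested in females, and 11 of 11 were higher there at an unadjusted p under 0.05, a level that 2.87% of all autosomal genes reached. Their median log2 fold change was 2.43 in males and 2.52 in females. The female libraries had no part in the male calls. They did decide which of these calls were tested, since the others missed the filter on low counts in the female table. A gene nearly silent in controls passes that filter more readily if del/del libraries are high. The share that carried over therefore holds only for genes past the filter, and the same limit applies to the female calls below. The number of such genes turned on single male libraries: it was 4 to 18 when one at a time was left out, 4 without heterozygous library 1 or del/del library 1 or 3, 5 without heterozygous library 4, 7 without heterozygous library 3 or del/del library 4, and 18 without heterozygous library 2. The male calls themselves numbered 5 to 21 in these fits. All that were tested in females passed there, except without male del/del library 2, where 8 of 9 did.

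Female calls carried over less evenly. Of the 32, 29 were tested in males, 24 were positive and 16 were higher at an unadjusted p under 0.05, against 2.34% of all genes. The median was 3.06 in females and 1.19 in males. Male heterozygous library 2 was the highest of the 4 male controls for 25 of the 32 genes, a position it held for 26.6% of all autosomal genes. It exceeded the median of all del/del libraries for 11 of the 32 and for 6846 of all 13566 autosomal genes. The other controls did so for 0 to 2 of the 32. Without male heterozygous library 2, 28 of 29 were positive, 26 passed the same threshold, against 2.43% of all genes, and the male median was 2.52. The male table then gave 21 calls of its own (0.16%), and 18 of 18 tested in females were higher at that threshold.

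The part of that library was seen gene by gene in 2 examples, chosen after their values were seen: Id4, an inhibitor of helix-loop-helix factors, and Elavl2, a neuronal RNA-binding protein. Id4 had 0, 0, 0, 0 and 0 CPM in female heterozygous and 1.03, 2.63, 0.693, 1.73 and 1.24 CPM in female del/del libraries. In males it had 0, 4.6, 0 and 0 CPM in heterozygous and 0.654, 1.17, 0.932 and 0.414 CPM in del/del libraries. Library 2 was thus the only one of 9 controls with a read of Id4, and the highest of all 18. Elavl2 was at 0, 3.1, 0.118 and 0 CPM in male controls, and its pooled log2 fold change was 1.94 with that library and 5.37 (SE 0.60, edgeR adjusted p = 2.93e-05) without it.

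**Figure D3:**
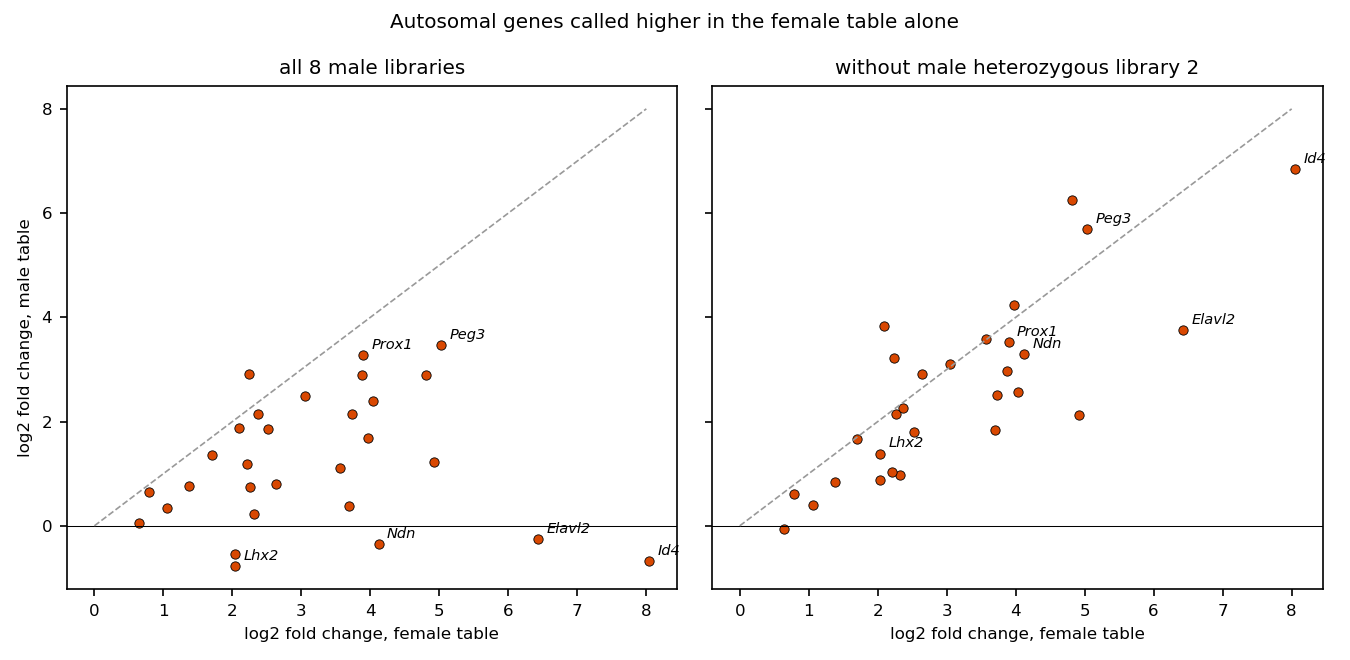
Male log2 fold change (y axis) against female log2 fold change (x axis) for the 29 autosomal genes called higher in the female table alone and tested in males, with all 8 male libraries (left) and without male heterozygous library 2 (right); the dashed line marks equal values. On the left 5 points lie below 0, on the right 1.

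A difference in response between the 2 tables was tested directly. Each sex had a table of its own, so sex cannot be told apart from any other difference between the tables. The interaction of sex and genotype gave 0 calls among 13566 autosomal genes (0.0%) with edgeR, and 175 genes were at an unadjusted p under 0.05. Limma voom gave 0 calls and DESeq2 gave 2, Id4 and AC214054.1. Without male heterozygous library 2, 157 genes were at that unadjusted level and 0 were called. Of the 73 genes, 11 had an interaction at an unadjusted p under 0.05. They included Pcdhac1, at log2 4.04 in females and 2.39 in males, Tjp1 at 3.73 and 2.15, and Peg12 in the other direction at 2.24 and 2.91. That no interaction was called does not show that the sexes respond alike.

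The 73 genes lay on every autosome except chromosome 6. Chromosome 7 held 10 of 1074 tested genes and chromosome 1 held 9 of 829, and chromosome 6 held 0 of 693. There were 7 pairs of neighbouring calls with a gap under 1 Mb. Besides Mkrn3 with Peg12, Prox1 with Gm17566, Gm16028 with Gm16025 and the protocadherin rows, these were Dmwd with Dmpk (1.07 kb apart), Acad8 with Vps26b (4.94 kb apart) and Fam189a1 with Tjp1 (139.6 kb apart). Within 100 kb of the 73 genes, 94 further autosomal genes were tested. Of these 11 (11.7%) were higher at an unadjusted p under 0.05, against 4.15% of all autosomal genes, and 1 was lower. Their median log2 fold change was 0.03. Dmrt3, beside Dmrt2, and Six5, beside Dmpk, were among the 11. Overlapping rows can share reads, and their part in the 11 was not tested.

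The genes were also longer than most. Their median span was 52.6 kb, compared with 20.4 kb for all autosomal genes tested, and 25 of 73 (34.2%) spanned over 100 kb, compared with 11.03%. A RefSeq upstream window whose start was within 5 kb of the deposited row's 5′ end was found for 51 of the 73 genes and for 8707 of 13566. In the window from 250 bases before to 50 after the start, the median CpG count was 23 for the 51 and 21 for all. The median share of G and C was 65.3% and 61.0%. Among genes under 1 CPM in controls the medians were 20 CpG for 20 of the rising genes and 13 for 733 genes of that range. In the 250 bases before the start alone the medians were 19 for the 51 and 16 for all, which lie between the 8 CpG printed for Peg12 and the 33 for Isl1.

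No gene of the B cell state lists was called, and no member of any of the 28 lists was called lower. Over all autosomal genes only 0.538% were called higher and 0.0221% lower. In lists of this size 0 calls lie near those shares, which also holds for the lists without a call below. Of 25 B lineage identity genes 0 were called, with a median of -0.01. In the pro-B and pre-B list 0 of 22 were called, 2 were positive and the median was -0.20; Rag1 was at -0.33 (SE 0.15). In the mature B list 0 of 27 were called, 24 were positive and the median was 0.15. Of 38 proliferation genes 0 were called and 1 was positive (median -0.18). Their level, in mean log2 CPM, was 7.19 to 7.50 in female heterozygous and 6.70 to 7.57 in female del/del libraries. In males it was 6.59 to 6.945 and 6.44 to 6.85, so genotypes overlapped in both sexes. All 15 genes of MHC class II presentation were positive, with 0 calls and a median of 0.15. Levels overlapped here too, at 7.43 to 7.85 in female heterozygous and 7.22 to 8.32 in female del/del libraries. Male ranges were 8.465 to 8.71 and 8.40 to 8.85. Those of the pro-B and pre-B and the mature B lists overlapped in both sexes as well. Of 45 interferon-stimulated genes 0 were called and 36 were positive (median 0.12), and of 18 age-associated B cell genes 0 were called and 12 positive (median 0.29). Plasma cell (0 of 14), germinal centre and activation (0 of 24), p53 target (0 of 27) and cytosolic ribosomal genes (0 of 59) had medians of 0.06, 0.10, 0.07 and 0.05.

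Markers of other cells differed in level between libraries, and their part in the results was tested only as covariates. Of 23 plasmacytoid dendritic cell genes 20 were positive, 1, Il3ra, was called and the median was 0.37. Their level, in mean log2 CPM, was 6.09 to 6.85 in female heterozygous, 6.12 to 7.19 in female del/del, 5.61 to 5.86 in male heterozygous and 5.56 to 6.22 in male del/del libraries. Erythroid genes had 1 of 19 positive, 0 called and a median of -0.59 (-0.46 without male heterozygous library 2). Their level was 2.74 to 4.01, 2.67 to 3.27, 3.15 to 4.74 and 3.21 to 3.78 in the same order of groups, and the 4.74 was male heterozygous library 2. Neutrophil and monocyte (0 of 25 called, median 0.19), T and NK cell (0 of 24, median -0.20), stem and progenitor (0 of 16, median 0.03) and stroma, endothelium and megakaryocyte genes (0 of 14, median -0.12) had no calls. With the erythroid level of each library in the model 48 autosomal genes were called higher, with the plasmacytoid level 56 and with the proliferation level 58. In these fits 43, 54 and 54 of the 73 genes were called, and 0 of the 73 changed sign.

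**Figure D4:**
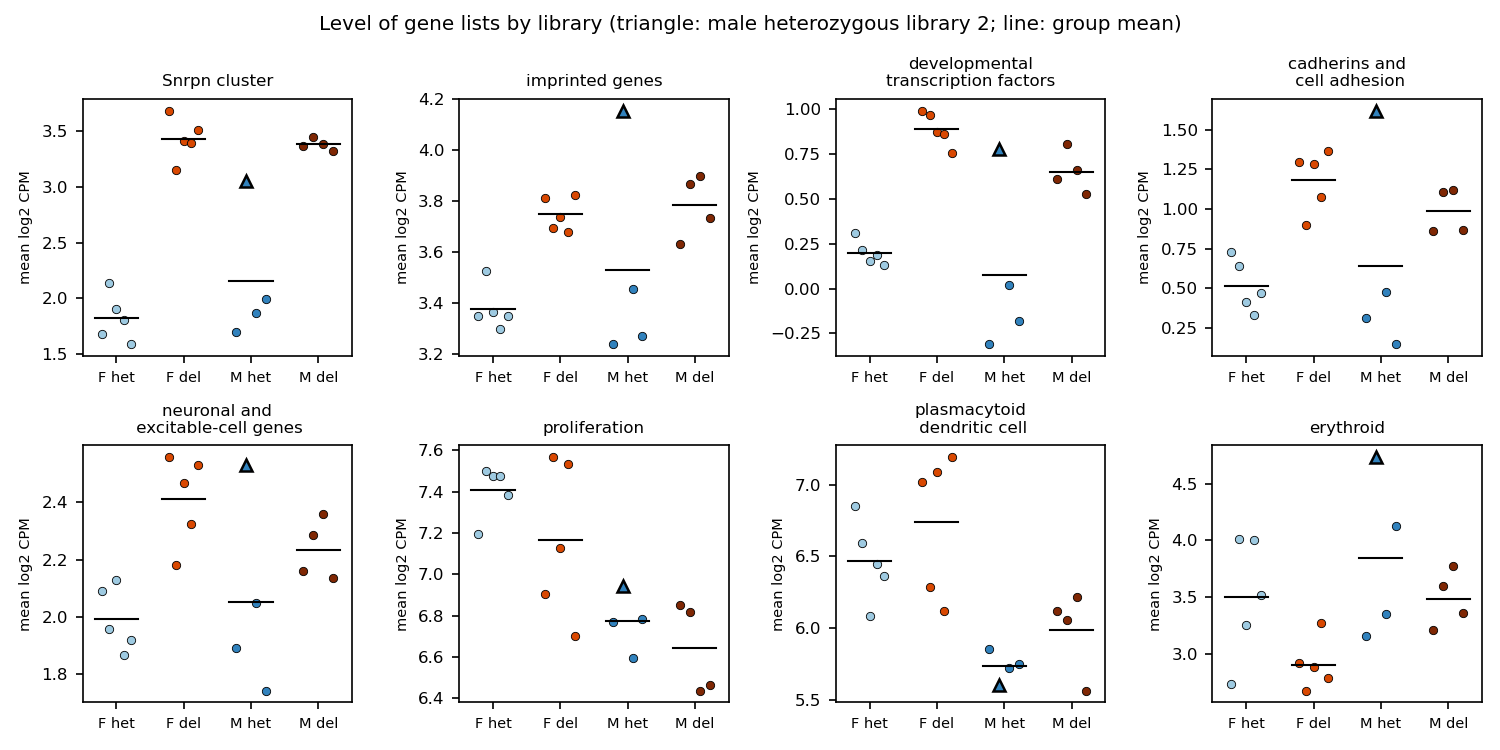
Mean log2 CPM (y axis) of 8 gene lists in each library, by sex (F, M) and genotype; points are libraries, lines are group means and the triangle is male heterozygous library 2. In the top row and for neuronal and excitable-cell genes, del/del libraries lie above controls of their sex except for the triangle. In these panels the triangle reached or passed the del/del range for all but the Snrpn cluster. The rest of the lower row shows wider overlap of genotypes.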

How the data were processed

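RNA from sorted marrow B cells had been poly(A)-selected and sequenced on Illumina TruSeq libraries, per the labels' protocols. Raw counts of reads for each gene were deposited in one table for females and one for males. The submitters' processing notes name bcl2fastq, FastQC, Trim Galore, TopHat and edgeR 3.32.1, with build GRCm38; the counting tool, annotation and strand setting are not given in the sources used here. The 4 columns of group means were not used, and 56 rows without a gene identifier (at most 0.0846% of a library's counts) were kept. CPM were computed from the counts of the tested genes, with TMM factors. The genotype term of a model with the table as a block was tested with edgeR 4.0.16 in R 4.3.3 (TMM factors 0.976 to 1.03, filterByExpr with a minimum count of 10 and total of 15, quasi-likelihood test, Benjamini-Hochberg adjustment over all 14017 tested genes, threshold 0.05). The script was tested on simulated data. Alternatives used DESeq2 1.42.0 and limma 3.58.1, other factors and filters, covariates, and each library left out. Named genes were the 24 higher and up to 12 lower calls of smallest p, up to 4 genes of smallest p per list, and up to 8 calls made in neither table alone; others are said to be chosen after their values were seen, or are neighbours, list members newly called without a library, or counts of 5 or fewer. Some genes that are counted are not reported here by name. The members and lists were chosen with earlier results of these data known. Replicates are separate animals by label, numbered in accession order.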

Additional observations from a re-analysis of the deposited data

Results flagged for a closer look

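In groups of 4 or 5 libraries, a library was singled out where its gap to the nearest other, as a share of the group's range, passed Dixon's critical value at the 95% level. This met 14 of 120 groups tested over 30 genes and 5 of 112 groups over 28 lists. Chance alone flags about 1 in 20 groups, and groups share libraries. Among heterozygous libraries, these were Pcdhac1 in female library 3 (1.04 CPM, high), 5730507C01Rik in female library 1 (0.0348 CPM, the only read), Tbx15 and Cdh4 in female library 1 (0.278 and 0.348 CPM, high), Tspan17 in male library 3 (13.5 CPM, high) and Pcdhb5 in male library 1 (0.417 CPM). Male heterozygous library 2 was high for Peg3 (4.90 CPM), Mllt4 (8.26 CPM) and Cdh4 (1.001 CPM).

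Among del/del libraries, these were Peg3 in female library 5 (23.3 CPM, high), Tmtc2 in female library 3 (4.58 CPM), Pcdhb5 in female library 2 (2.59 CPM), and Mllt4 (13.8 CPM) and Gm16025 (1.07 CPM) in male library 3. Of the list levels, in mean log2 CPM, imprinted genes stood out in female heterozygous library 2 (3.53) and repressive chromatin genes in female del/del library 5 (6.00, low). Mature B cell genes did so in male del/del library 2 (8.12, low), age-associated B cell genes in female heterozygous library 5 (3.318, low) and stem and progenitor genes in female del/del library 2 (2.23, low).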

How the results depend on the processing

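No gene of the 73 changed sign under any alternative in which it was tested, and the counts stayed at 72 to 73 higher and 3 lower with robust dispersions, RLE, upper-quartile or autosomal TMM factors, or no filter on low counts. DESeq2 called 125 higher and 11 lower, 72 of the 73 among them, and limma voom 78 and 3, with 63 of the 73. A stricter filter, of at least 1 CPM in 4 libraries, gave 65 higher and 3 lower. Of the 73, 64 were then called and 7 were not tested. Without the table term 38 were higher and 1 lower. The female table alone gave 32 and 1, and the male table alone 15 and 1, from fewer samples. The erythroid level as covariate gave 48 and 1, and the plasmacytoid level 6 lower. With 1 library left out, 54 to 107 genes were higher and 1 to 5 lower, and 53 (without male heterozygous library 1) to 69 (without male heterozygous library 2) of the 73 were called. Female calls higher in males then numbered 14 to 26 (16 with all libraries), and male calls higher in females 4 to 18 (11 with all). The calls they were drawn from numbered 24 to 38 in females and 5 to 21 in males. For the sex interaction DESeq2 gave 2 calls. Chosen after seeing the data, the count without male heterozygous library 2 was 5 for imprinted genes, 6 for cadherin and adhesion genes, 10 for developmental factors, 7 for neuronal genes, 1 for p53 targets (Cdkn1c) and 62 for genes separate in both sexes. Of single named genes, Tie1 turned to 0.075 with the erythroid covariate and H2-DMa to -0.014 with the proliferation covariate; neither was called. The cause of these shifts was not tested. The labels state no pairs; pairing animals of nearest number as a block, in place of the table term, gave 78 higher and 8 lower, with 64 of the 73 called. Genes under 1 CPM rest on few reads, which limits the precision of their folds.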
